A study of Oryza sativa with 12 samples.

Results

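The comparison of *ntl3-1* with wild type (WT) at 29 ºC, the growth temperature without heat stress, used 6 of the 12 deposited RNA-Seq libraries, chosen by genotype and treatment as labelled: 3 of *ntl3-1* and 3 of WT. All seedlings were of the rice cultivar Nipponbare and 8 days past germination, and whole seedlings were sampled after a further 3 h at 29 ºC, or at 45 ºC for the other 6 libraries (3 of each genotype). WT carried no edit. *ntl3-1*, labelled NTL3-/-, is a CRISPR-Cas9 line whose OsNTL3 (LOC_Os01g15640, chromosome 1) is predicted to encode a truncated protein. It is 1 edited line that went through transformation, so differences caused by the edit and other differences between this line and WT cannot be told apart. The deposited table holds FPKM, a level scaled by transcript length and by the reads mapped in the library, for 55986 loci, of which 31681 were above 0 in at least 3 of the 12 libraries and were tested.

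OsNTL3 belongs to the membrane-associated NAC transcription factors, which are held at a membrane by a C-terminal transmembrane segment and act on genes once the factor reaches the nucleus. Such tethered factors connect stress at a membrane with transcription, and in plants they work beside bZIP factors of the unfolded protein response, the pathway that raises chaperones when proteins misfold in the endoplasmic reticulum (ER). The comparison at 29 ºC asks which transcripts differed between the genotypes when no heat was applied.

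The FPKM of a library summed to 610880 to 698971 at 29 ºC, and 20015 to 20548 loci reached 1 FPKM. The table gives no read counts. From the steps between low values, 1 read was worth 0.878 to 1.08 times as much FPKM in the libraries at 29 ºC as in WT replicate 1, and 1.69 to 2.04 times as much at 45 ºC. On the log2 scale, Pearson's r across genes was 0.977 to 0.98 between replicates and 0.963 to 0.971 between genotypes. The median log2 difference of the 17004 loci above 1 FPKM in every library was -0.0231. The 44 loci described as chaperones and folding enzymes, the check for heat in the 29 ºC libraries, summed to 1786.5 to 1965.8 FPKM in WT and 1698.3 to 1926.6 FPKM in *ntl3-1*, against at least 86584.8 FPKM in every library at 45 ºC. These loci were drawn from those that the study called heat-responsive on these libraries, 41 of them as raised. The gap to 45 ºC therefore follows from how they were chosen, and only the levels at 29 ºC compare the genotypes. The 6 loci described as photosynthesis genes, the check for green tissue, were above 0 in all libraries at 29 ºC, and their sum was 1060.2 to 1391.9 FPKM in WT and 1659.3 to 1998.5 FPKM in *ntl3-1*, while 0 of the 6 passed the test. The part of tissue composition in the results below was not tested, and in whole seedlings fewer cells of a type and less RNA per cell cannot be told apart.

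The edited gene was measured first. OsNTL3 stood at 18.3, 21.8 and 20.5 FPKM in WT and at 13.9, 10.3 and 14.1 FPKM in *ntl3-1*. All 3 mutant libraries lay under the lowest WT library. The log2 difference was -0.67 ± 0.17 (SE; 3 libraries a genotype), with an adjusted p of 0.0663 (limma with Benjamini-Hochberg adjustment), so the transcript did not pass the threshold of 0.05. At 45 ºC OsNTL3 stood at 57.5, 66.3 and 87.5 FPKM in WT and at 28.7, 28.4 and 34.1 FPKM in *ntl3-1*. There the log2 difference was -1.19 and passed (limma adjusted p = 0.00439). The test of a change in the difference between the temperatures did not pass (limma interaction, adjusted p = 0.656). A small edit need not remove a transcript, and FPKM of the whole gene does not show the protein.

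OsbZIP74 (LOC_Os06g41770), a bZIP factor of the unfolded protein response, was at 14.6, 16.2 and 15.5 FPKM in WT and 18.1, 17.8 and 18.4 FPKM in *ntl3-1*, without overlap but with an adjusted p of 0.391 (limma). BiP1 (LOC_Os02g02410), an ER chaperone of the HSP70 family, was at 106 ± 6.11 FPKM in WT and 107 ± 13.3 FPKM in *ntl3-1* (SD, n = 3 each). The calreticulin LOC_Os01g67054 was at 107 ± 10.9 and 116 ± 9.73 FPKM, and the protein disulfide isomerase LOC_Os09g27830 at 40.7 ± 3.21 and 39.3 ± 4.39 FPKM. For these ER folding genes the genotypes overlapped. Of the 12 loci that the study followed by qRT-PCR, 0 passed the test with the fold threshold (limma), and 2 had an unadjusted p of at most 0.05. Over all loci tested these shares were 1.99% and 13.6%, at which 12 loci hold few calls or none. The ethylene-insensitive 3 locus LOC_Os07g48630, of a family of factors that carry the ethylene signal, passed the adjusted p alone at 36, 31.5 and 38.2 FPKM in WT against 50, 62.1 and 67.6 FPKM in *ntl3-1* (log2 difference 0.76, limma adjusted p = 0.0367). It passed in 12 of 21 alternatives and missed the threshold without any 1 of the WT libraries at 29 ºC, or without *ntl3-1* replicate 2 or 3 (adjusted p of 0.0679 to 0.159), and without WT replicate 1 or *ntl3-1* replicate 3 at 45 ºC (0.0513 and 0.0553).

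Across all loci the differences ran mostly one way. At an adjusted p of at most 0.05 and a log2 difference of at least 1 in size (limma with Benjamini-Hochberg adjustment), 566 loci (1.79% of those tested) were higher and 64 (0.202%) were lower in *ntl3-1*. By the adjusted p alone 746 (2.35%) were higher and 126 (0.398%) lower, and 4301 (13.6%) had an unadjusted p of at most 0.05. Over all loci tested the log2 difference was above 0 in 48.3%, and its median was -0.00019. The higher loci had a median log2 difference of 1.87, and 311 of them (54.9%) lay between 1 and 2, 206 between 2 and 4, and 49 at 4 or more. Of the lower loci, with a median of -1.57, 45 lay between 1 and 2 in size. A mean of at least 10 FPKM in the higher genotype was reached by 181 of the higher and 19 of the lower loci. In all 630 loci the 3 libraries of one genotype lay on one side of the 3 of the other, as they did in 13.1% (above) and 12.6% (below) of all loci tested. The same libraries chose the 630 loci, so the lack of overlap follows largely from the calls and adds no support to them.

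**Figure D1:**
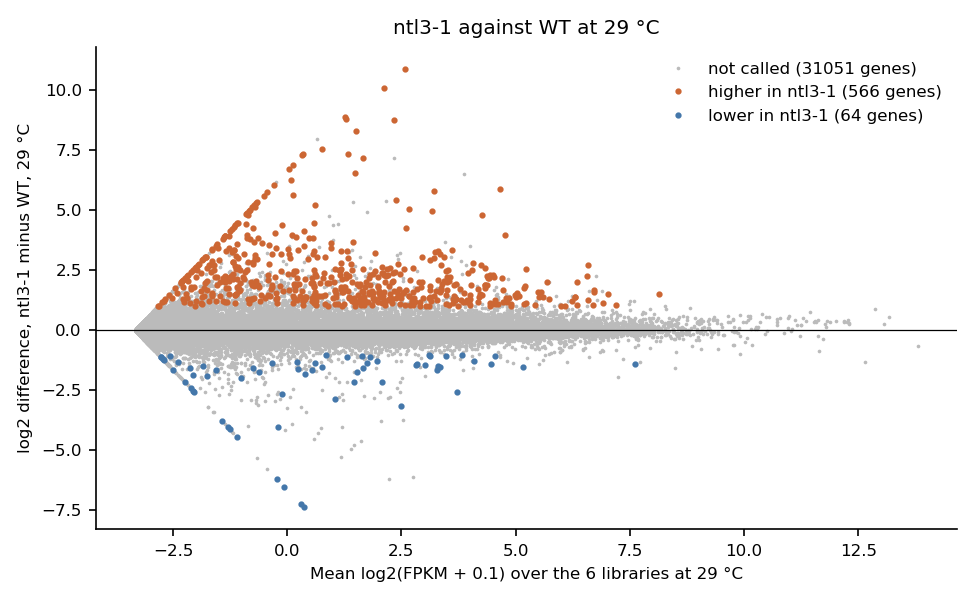
The log2 difference between *ntl3-1* and WT at 29 ºC (vertical axis) against the mean log2(FPKM + 0.1) over the 6 libraries at 29 ºC (horizontal axis), 1 point a locus. The 566 loci called higher (orange) outnumber the 64 called lower (blue), and the straight edges on the left are loci listed at or near 0 in one genotype.

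The number of calls depended on single libraries. Without *ntl3-1* replicate 3 the 566 higher loci became 351, without WT replicate 1 they became 363 and without WT replicate 2 they became 371. The 64 lower loci became 36 without WT replicate 1 and 41 without WT replicate 3. Among the 566 higher loci *ntl3-1* replicate 3 was the highest mutant library in 317 (56%), against 32.3% of the 20480 loci with a mean of at least 1 FPKM, and WT replicate 3 was the highest WT library in 300 (53%) against 37.1%. The median log2 difference from the WT mean was 1.76, 1.73 and 2.12 in *ntl3-1* replicates 1, 2 and 3, a description only, since these libraries chose the loci. The labels do not tie the replicate numbers of the genotypes to each other, and the part of these libraries in the calls was not tested.

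Product descriptions were taken from a supplementary table of the study that lists only loci it called heat-responsive on these libraries, the WT libraries at 29 ºC included. It covers 3185 loci here, so it describes 156 of the 566 higher and 10 of the 64 lower loci, and the direction within a list drawn from it is not independent evidence. Of the 2075 loci with an informative description, 100 (4.82%) were higher and 9 (0.434%) lower. The share was 7.41% among the 1998 loci listed as raised by heat and 0.674% among the 1187 listed as reduced, and the lists below are read against these shares.

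Of the 26 lists, that of the WRKY factors had the highest share of higher loci. These plant transcription factors bind the W-box in promoters and are known for defence and abiotic stress responses. Of the 20 loci described as WRKY factors, 16 of them listed as raised by heat, 9 (45%) were higher in *ntl3-1* and 1 was lower, against 1.79% and 0.202% of all loci tested and 4.82% and 0.434% of the described loci. All 9 higher loci came from those listed as raised by heat, where the share was 7.41%. The median log2 difference of the 20 was 1.32. Their summed level was 145.8, 136 and 165.5 FPKM in WT and 295.4, 327.5 and 421.6 FPKM in *ntl3-1*, and every mutant library lay above every WT library.

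The most abundant called member was OsWRKY53 (LOC_Os05g27730), known as an activator of defence genes downstream of a MAP kinase cascade. It measured 47.9, 41 and 56.3 FPKM in WT and 96.4, 129 and 164 FPKM in *ntl3-1*, with a log2 difference of 1.4 ± 0.21 (SE; limma adjusted p = 0.0053). OsWRKY45 (LOC_Os05g25770), known for salicylic acid-dependent resistance to blast fungus, measured 8.66, 9.05 and 11.8 FPKM in WT and 47.2, 37.4 and 49.3 FPKM in *ntl3-1*. Its mutant libraries were all at least 37.4 FPKM and its WT libraries at most 11.8 FPKM, and the log2 difference was 2.17 ± 0.24 (limma adjusted p = 0.000754). OsWRKY71 (LOC_Os02g08440), known as a repressor of gibberellin signalling in the aleurone, measured 12, 8.36 and 12.9 FPKM in WT and 22.7, 39.1 and 55.5 FPKM in *ntl3-1* (log2 difference 1.74, limma adjusted p = 0.0115). The mutant libraries of OsWRKY71 spread over a wide range and its adjusted p was 0.0565 without WT replicate 2.

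OsWRKY76 (LOC_Os09g25060), known as a transcriptional repressor in blast resistance, rose from 1.29, 1.57 and 2.8 FPKM in WT to 16.4, 7.22 and 10.7 FPKM in *ntl3-1* (log2 difference 2.54, limma adjusted p = 0.0067). OsWRKY21 (LOC_Os01g60640) was at 0.87, 0.828 and 1.49 FPKM in WT and 5.68, 5.04 and 8.57 FPKM in *ntl3-1* (log2 difference 2.5, adjusted p = 0.00106). OsWRKY7 (LOC_Os05g46020) was at 1.46, 1.53 and 2.08 FPKM against 5.48, 4.18 and 6.71 FPKM (log2 difference 1.63, adjusted p = 0.00274). For all 3 the lowest mutant library was at least 2 FPKM above the highest WT library. The largest differences in the list belonged to members that were near 0 in WT. LOC_Os03g21710, described as a WRKY45 factor but a locus other than OsWRKY45, measured 0.102, 0.134 and 0.123 FPKM in WT and 3.51, 1.64 and 2.71 FPKM in *ntl3-1*, with a log2 difference of 3.57 (limma adjusted p = 8.54e-05). OsWRKY77 (LOC_Os01g40260) measured 0.157, 0.206 and 0.609 FPKM in WT and 4.12, 3.65 and 5.2 FPKM in *ntl3-1* (log2 difference 3.52, adjusted p = 0.000306).

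The ninth higher member, LOC_Os05g50700, was at 0.445, 1.01 and 1.34 FPKM in WT against 2.82, 3.27 and 5.03 FPKM in *ntl3-1*, with an adjusted p of 0.0435 (limma) that passed in 9 of 21 alternatives and rose to 0.178 without *ntl3-1* replicate 3. Without WT replicate 1 or 2 it was 0.153 and 0.107, and without *ntl3-1* replicate 1 or 2 it was 0.0778 and 0.103, and without any 1 of the *ntl3-1* libraries at 45 ºC 0.0647 to 0.0668. The member that was lower, LOC_Os10g42850, stayed under 1 FPKM in every library, at 0.203, 0.391 and 0.591 FPKM in WT and 0.0391, 0.0795 and 0.0874 FPKM in *ntl3-1* (adjusted p = 0.0276). Its adjusted p was 0.0694 to 0.103 without WT replicate 2 or 3 or without any 1 of the mutant libraries. Leaving out 1 library at a time called 7 to 9 WRKY members higher, and a fit to the 6 libraries at 29 ºC alone called 5.

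**Figure D2:**
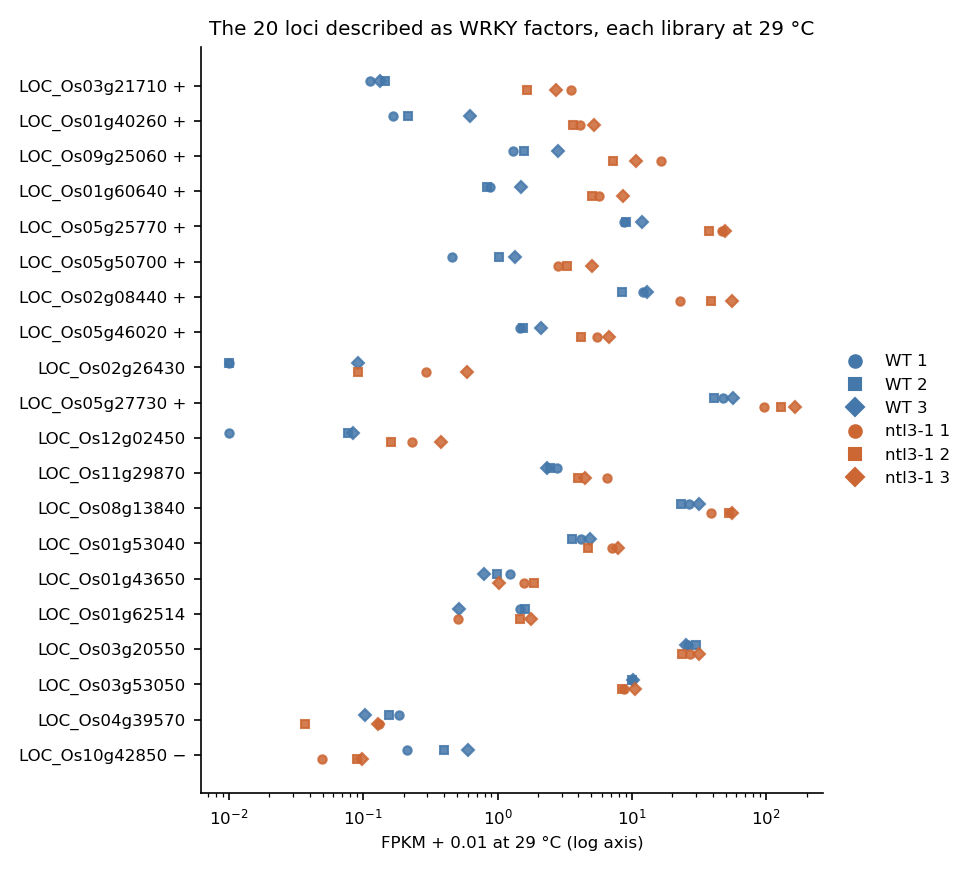
FPKM + 0.01 at 29 ºC (log axis) of the 20 loci described as WRKY factors, with 1 symbol for each of the 3 libraries of WT (blue) and *ntl3-1* (orange), ordered by log2 difference. A plus sign marks the 9 loci called higher and a minus sign the 1 called lower, and in each called locus the colours do not overlap.

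Loci with a VQ domain, a short motif through which plant proteins bind WRKY factors, were looked up after the values had been seen. Of the 5 described, 3 were higher and 0 lower, against 1.79% higher among all loci tested and 4.82% among the described loci. LOC_Os01g17050 measured 0.778, 0.756 and 2.47 FPKM in WT and 6.69, 12.3 and 18.4 FPKM in *ntl3-1* (log2 difference 3.22, limma adjusted p = 0.00506, and 0.07 in the 1 of 21 alternatives that it missed). LOC_Os06g33970 measured 0.156, 0.0454 and 0.353 FPKM in WT and 3.04, 1.99 and 3.18 FPKM in *ntl3-1* (log2 difference 3.44, adjusted p = 0.00477), and LOC_Os03g20330 0.692, 0.557 and 1.34 FPKM against 3.73, 3.6 and 5.03 FPKM (log2 difference 2.2, adjusted p = 0.00648). In all 3 VQ loci replicate 3 was the highest library of both genotypes. The other members, LOC_Os07g06790 and LOC_Os02g07690, had log2 differences of 0.8 and 0.7 and adjusted p of 0.387 and 0.149. Loci described with a ZIM domain or a heavy metal associated domain were looked up in the same way, and 2 of 2 and 4 of 9 were higher. Groups picked after the values were seen are a description only.

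Factors with an AP2 domain, which include the ethylene-responsive factors and the dehydration-responsive element-binding proteins, were higher in 5 of 21 loci (23.8%) and lower in 0, with a median log2 difference of 0.44. The share was 1.79% among all loci tested and 4.82% among the described loci. All 5 came from the 17 AP2 loci listed as raised by heat, a class in which the share was 7.41%. Among the 5 called loci the AP2 locus LOC_Os04g52090 was the most abundant, at 8.89, 11.6 and 34.7 FPKM in WT and 60.6, 86.7 and 145 FPKM in *ntl3-1* (log2 difference 2.57 ± 0.47 SE, limma adjusted p = 0.0166). Replicate 3 was the highest in both genotypes, and WT replicate 3 stood far above the other WT libraries. Without WT replicate 1 or 2, or without *ntl3-1* replicate 3, its adjusted p was 0.0704, 0.0763 and 0.0777. LOC_Os08g36920 was near 0 in WT (0, 0.0663 and 0.0735 FPKM) and at 1.13, 1.82 and 3.55 FPKM in *ntl3-1* (log2 difference 3.85, adjusted p = 0.000376). The ethylene-responsive factor LOC_Os02g43790 measured 4.41, 3.3 and 6.19 FPKM in WT and 12, 16.9 and 21.7 FPKM in *ntl3-1* (log2 difference 1.84, adjusted p = 0.00279). The list's 5 calls became 2 without WT replicate 1, 3 without WT replicate 2 and 3 without *ntl3-1* replicate 3, and 1 in a fit to the 6 libraries at 29 ºC alone.

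Among the other NAC factors, the family of OsNTL3 itself, 2 of 12 were higher and 0 lower, and the median log2 difference was 0.02. The higher loci of this and the next lists all came from loci listed as raised by heat. The share was 7.41% there and 1.79% among all loci tested, at which lists of this size hold few calls or none. The NAC domain-containing protein 67 locus LOC_Os07g12340 measured 7.89, 9.11 and 16.9 FPKM in WT and 35.6, 34.4 and 49.2 FPKM in *ntl3-1* (log2 difference 1.87, limma adjusted p = 0.00502, and 0.0638 in the 1 of 21 alternatives that it missed). LOC_Os01g64310, described by the family's other name, no apical meristem protein, measured 2.07, 2.44 and 3.08 FPKM in WT and 5.84, 7.39 and 7.76 FPKM in *ntl3-1* (log2 difference 1.44, adjusted p = 0.00259). Both NAC loci had their lowest mutant library well above their highest WT library. The C2H2 zinc finger locus LOC_Os11g47630, of a family with many stress-induced factors, measured 0.463, 0.505 and 0.393 FPKM in WT and 6.99, 5.06 and 8.63 FPKM in *ntl3-1*, and it was the 1 higher locus of 13 in its list (log2 difference 3.63, adjusted p = 0.000107). In the bHLH list 2 of 12 were higher, among them LOC_Os03g53020 at 1.92, 1.73 and 1.95 FPKM against 6.7, 7.73 and 17 FPKM (log2 difference 2.3, adjusted p = 0.00341). The bHLH calls became 1 without WT replicate 1 or 2 or *ntl3-1* replicate 2 or 3. In the MYB list 1 of 30 was higher, or 0 without WT replicate 1, and 1 lower. The lists of bZIP factors (0 of 10) and heat shock factors (0 of 4) held no call in limma, with 0 bZIP and 4 heat shock factor loci (3 higher, 1 lower) at an unadjusted p of at most 0.05.

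Calcium sensors turn a rise of cytosolic calcium, an early step of many stress responses, into protein binding. Of the 34 loci described as calcium sensors and channels, 4 (11.8%) were higher and 0 lower, and the median log2 difference was 0.05. The share was 1.79% among all loci tested. All 4 came from the 27 calcium loci listed as raised by heat, a class in which the share was 7.41%, at which a list of this size holds few calls. The calmodulin-related sensor OsCML21 (LOC_Os05g24780) measured 1.94, 1.74 and 2.26 FPKM in WT and 18.3, 9.39 and 15.3 FPKM in *ntl3-1* (log2 difference 2.75 ± 0.31 SE, limma adjusted p = 0.00102). Its WT libraries were close together and its mutant libraries lay several times higher. The EF hand protein LOC_Os09g24580 measured 2.56, 1.72 and 4.11 FPKM in WT and 8.35, 21 and 24.8 FPKM in *ntl3-1* (log2 difference 2.59, adjusted p = 0.0053). It missed the threshold in 1 of 21 alternatives (limma adjusted p = 0.0841). The calmodulin-like protein LOC_Os11g04560 measured 7.17, 8.15 and 9.48 FPKM against 21.4, 16.6 and 20.9 FPKM (log2 difference 1.24, adjusted p = 0.0112), and its adjusted p was 0.0588 without WT replicate 1 and 0.0561 without *ntl3-1* replicate 3. The list's 4 calls became 2 without WT replicate 1, 2 without *ntl3-1* replicate 3 and 2 in the fit to the 6 libraries.

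Of 84 loci described as defence genes and cell surface receptors, 4 (4.76%) were higher and 1 was lower, near the 4.82% of all described loci. The pathogenesis-related Bet v I protein LOC_Os12g36880, of a family of small ligand-binding proteins that accumulate on infection, had the largest difference of any described locus. It measured 2.65, 3.59 and 4.74 FPKM in WT and 242, 72.1 and 59.4 FPKM in *ntl3-1* (log2 difference 4.79 ± 0.87 SE, limma adjusted p = 0.0151). Replicate 1 of *ntl3-1* stood far above the other mutant libraries, and the adjusted p was 0.0574 without it, 0.0714 without WT replicate 1 and 0.0602 without WT replicate 2. The harpin-induced protein LOC_Os01g64470, of a family of membrane proteins linked to the hypersensitive response, measured 2.55, 2 and 5.71 FPKM in WT and 15, 21.6 and 42.9 FPKM in *ntl3-1* (log2 difference 2.92, adjusted p = 0.00329). It missed the threshold in 1 of 21 alternatives (limma adjusted p = 0.0737). The chitinase CHIT5 (LOC_Os05g33140), of the enzymes that cleave chitin of fungal walls, was the lower locus of the list, at 5.27, 5.8 and 5.11 FPKM in WT and 1.6, 2.24 and 1.45 FPKM in *ntl3-1* (log2 difference -1.58 ± 0.21 SE, adjusted p = 0.00274). Every mutant library of CHIT5 was under every WT library, and the spread within each genotype was small.

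Among enzymes, a chloroplast lipoxygenase (LOC_Os08g39850), of the family that starts oxylipin and jasmonate synthesis, measured 1.12, 0.963 and 1.63 FPKM in WT and 12, 4.94 and 7.2 FPKM in *ntl3-1* (log2 difference 2.55, limma adjusted p = 0.0145). Its adjusted p was 0.0641 and 0.0676 without WT replicates 1 and 2, and 0.0564 and 0.0571 without *ntl3-1* replicates 1 and 3. The indole-3-glycerol phosphate synthase LOC_Os09g08130, an enzyme of the tryptophan pathway, measured 0.494, 0.289 and 0.373 FPKM in WT and 12.5, 3.11 and 2.45 FPKM in *ntl3-1* (log2 difference 3.29, adjusted p = 0.0148, and 0.0673 without WT replicate 2). The synthase missed the threshold in 3 of 21 alternatives, with an adjusted p of up to 0.0814 (limma). Both enzymes were highest in *ntl3-1* replicate 1, as LOC_Os12g36880 was. Of 35 cytochromes P450, 3 (8.57%) were higher, against 1.79% of all loci tested and 4.82% of the described loci. All 3 came from the 21 P450 loci listed as raised by heat, a class in which the share was 7.41%. At these shares lists of this size hold few calls. LOC_Os09g26960 was the most abundant of the 3 at 40.2, 43 and 50.9 FPKM in WT against 88.4, 78.4 and 107 FPKM in *ntl3-1* (log2 difference 1.02, adjusted p = 0.0014). The 3 calls became 0 without WT replicate 1, and 1 without WT replicate 2 or *ntl3-1* replicate 1 or 3. Of 56 proteases and inhibitors, 4 (7.14%) were higher, 3 of them from the 28 listed as raised by heat, with the same shares for comparison. They were led by the serine carboxypeptidase OsSCP30 (LOC_Os05g50580) at 0.45, 0.675 and 0.472 FPKM against 2.12, 2.17 and 4.11 FPKM (log2 difference 2.15, adjusted p = 0.00131).

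In the remaining lists the share of higher loci was near or under the 4.82% of all described loci, and lists this small can hold few or no calls at that share. It pools loci listed as raised by heat (7.41% higher) and as reduced (0.674% higher), and the lists differ in their make-up. Of the 44 chaperone loci 41 were listed as raised, and of the 48 pentatricopeptide loci 41 were listed as reduced. In the chaperone list 0 of 44 loci passed, with a median log2 difference of 0.00186 and 22 of 44 above 0, and 4 were higher and 1 lower at an unadjusted p of at most 0.05 (limma). The lists of photosynthesis genes (0 of 6), ribosomal proteins (0 of 19), pentatricopeptide proteins (0 of 48) and UDP-glycosyltransferases (0 of 13) were without calls, and in the seed and lipid transfer proteins 0 of 23 passed. At an unadjusted p of at most 0.05 these 5 lists had 1, 3, 1, 3 and 7 loci in either direction. Leaving out 1 library gave 1 higher chaperone (*ntl3-1* replicate 2), 1 UDP-glycosyltransferase (WT replicate 3 at 45 ºC), 1 seed or lipid transfer protein (*ntl3-1* replicate 1) and 1 heat shock factor (WT replicate 2 or *ntl3-1* replicate 1 at 45 ºC). The higher loci were 3 of 68 transporters and aquaporins (4.41%), 4 of 101 ubiquitin ligase components (3.96%), 2 of 49 cell wall genes (4.08%), 2 of 42 redox enzymes (4.76%), 1 of 33 cell cycle and histone genes (3.03%), 1 of 19 auxin response genes (5.26%), 1 of 31 other hormone genes (3.23%) and 3 of 125 transposable elements (2.4%). These counts are unstable: the transporters fell to 1 without WT replicate 1 and 0 without *ntl3-1* replicate 3, and the ubiquitin ligase components became 7 without *ntl3-1* replicate 1. The cell wall genes fell to 0 without WT replicate 1 or 2 or *ntl3-1* replicate 1 or 3, and the redox enzymes to 1 without any 1 library at 29 ºC but *ntl3-1* replicate 2. The single calls among cell cycle, auxin response and other hormone genes were each lost without WT replicate 2 or *ntl3-1* replicate 3, among others.

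Fewer described loci were lower in *ntl3-1*. The MYB-like factor LOC_Os03g14810, described as a relative of DIVARICATA, a regulator of flower asymmetry known from snapdragon, measured 15, 15.4 and 19.3 FPKM in WT and 4.53, 5.39 and 7.74 FPKM in *ntl3-1* (log2 difference -1.5 ± 0.26 SE, limma adjusted p = 0.0119). Its adjusted p was 0.0536 without WT replicate 3 and 0.0521 without *ntl3-1* replicate 1. The phytosulfokine precursor LOC_Os11g05190, which gives a peptide hormone that promotes cell growth, measured 13.4, 13.4 and 9.87 FPKM in WT and 6.04, 6.26 and 5.52 FPKM in *ntl3-1* (log2 difference -1.02, adjusted p = 0.00746). The gibberellin 2-beta-dioxygenase LOC_Os05g48700, an enzyme that inactivates gibberellins, was at 1.68, 1.57 and 2.9 FPKM against 0.57, 0.447 and 0.731 FPKM (log2 difference -1.63, adjusted p = 0.0376), and leaving out any 1 library at 29 ºC took it to between 0.0746 and 0.135, and leaving out WT replicate 2 or *ntl3-1* replicate 3 at 45 ºC to 0.05 and 0.0566. In each of these 3 loci the genotypes did not overlap.

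The most abundant lower locus was LOC_Os01g68300 on chromosome 1, for which no description was at hand. It measured 329, 257 and 377 FPKM in WT and 133, 100 and 129 FPKM in *ntl3-1* (log2 difference -1.4 ± 0.24 SE, limma adjusted p = 0.0115, and 0.0538 without WT replicate 1). LOC_Os10g14920 measured 32.4, 30.4 and 33.1 FPKM in WT and 4.77, 5.1 and 6.23 FPKM in *ntl3-1* (log2 difference -2.56, adjusted p = 3.11e-05), and LOC_Os11g20330 15.4, 16.5 and 17.9 FPKM against 1.72, 1.81 and 1.8 FPKM (log2 difference -3.15, adjusted p = 0.00101). Replicates of both loci were close together in both genotypes. At the other end, LOC_Os02g14440 was the most abundant higher locus, at 166, 131 and 207 FPKM in WT and 430, 575 and 440 FPKM in *ntl3-1* (log2 difference 1.53, adjusted p = 0.0115, and 0.0559 without WT replicate 2).

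The largest differences belonged to loci that were near 0 in one genotype. Under limits set after the values had been seen, 15 loci stayed under 1 FPKM in all 6 WT libraries of both temperatures and at 5 FPKM or more in all 6 *ntl3-1* libraries, and 2 loci did the reverse. LOC_Os10g22630 on chromosome 10 was listed at 0.0395, 0 and 0.0831 FPKM in WT and at 234, 264 and 279 FPKM in *ntl3-1* at 29 ºC, and at 349, 335 and 323 FPKM in *ntl3-1* at 45 ºC against at most 0.319 FPKM in WT. LOC_Os02g41961 on chromosome 2 was at 139, 152 and 138 FPKM in *ntl3-1* and at most 0.135 FPKM in WT at 29 ºC, and LOC_Os07g06834 on chromosome 7 was at 102, 107 and 105 FPKM against at most 0.164 FPKM. In these loci the mutant libraries stood close together at each temperature. The log2 difference of LOC_Os10g22630 was 10.88 (limma adjusted p = 2.58e-07), and because it depends on the constant added to near-zero values it ran from 7.96 to 12.81 over the alternatives.

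Both loci of the reverse kind lay on chromosome 10. LOC_Os10g20480 measured 16.4, 17 and 15.9 FPKM in WT at 29 ºC and LOC_Os10g16440 8.41, 9.98 and 8.89 FPKM. Each was listed at 0 in all 6 *ntl3-1* libraries. The 15 loci high in *ntl3-1* were spread over chromosomes 1, 2, 3, 7, 9 and 10, and for none of the 17 was an informative description at hand. At 29 ºC alone, 36 loci were listed at 0 in all 3 WT libraries and at 0.5 FPKM or more in all 3 of *ntl3-1*. Of them, 27 were at 0 in WT at 45 ºC too, and 21 of these were above 0 in every *ntl3-1* library there. The converse held for 8 loci. Of those, 6 were at 0 in *ntl3-1* at 45 ºC too, but only 2 of the 6 were above 0 in every WT library there. The fitted log2 difference of a locus listed at 0 in one genotype is set by the constant added, and such loci are described by their levels. LOC_Os07g05840 was such a locus, at 14.7, 16.4 and 16.1 FPKM in *ntl3-1* at 29 ºC and at 18.9, 19.9 and 22.5 FPKM at 45 ºC, and listed at 0 in all 6 WT libraries.

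**Figure D3:**
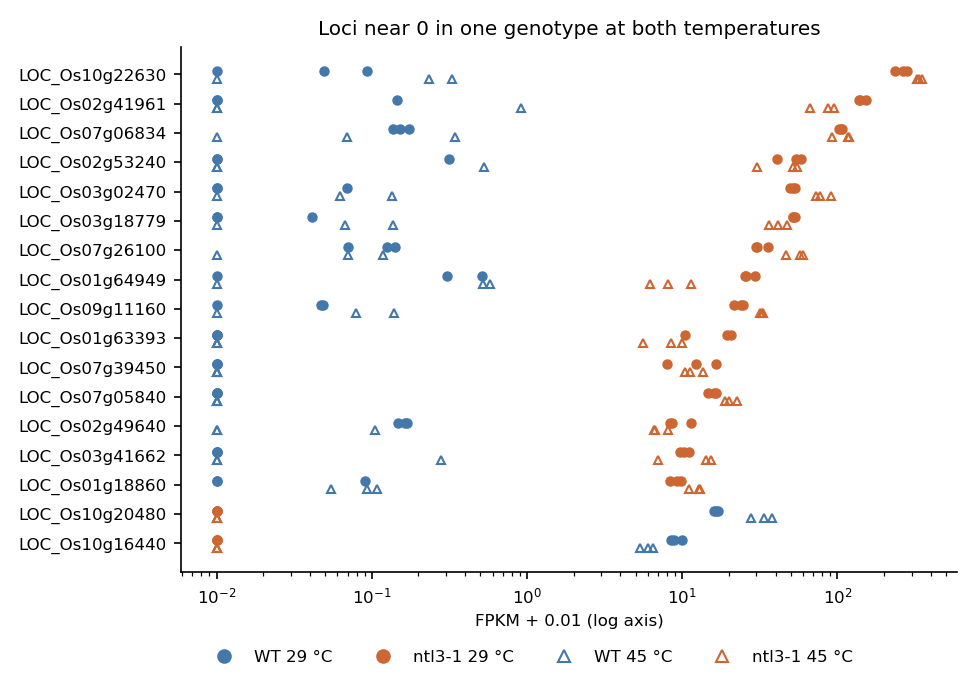
FPKM + 0.01 (log axis) of the 17 loci that were under 1 FPKM in one genotype and at 5 FPKM or more in the other at both temperatures, with 3 libraries a group (circles 29 ºC, triangles 45 ºC, blue WT, orange *ntl3-1*). LOC_Os10g22630, at 234 to 279 FPKM in *ntl3-1* at 29 ºC, is the highest, and the bottom pair, LOC_Os10g20480 and LOC_Os10g16440, is listed at 0 in *ntl3-1*.

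By chromosome, the share of tested loci that was higher ran from 1.25% (chromosome 11) to 2.12% (chromosome 12), and the share that was lower from 0.058% (chromosome 2) to 0.381% (chromosome 10). Locus names follow the order along a chromosome, and neighbours were counted where 2 higher loci lay within 5 places of each other among all named loci of the table. Such runs held 132 of the 566 higher loci (23.3%) in 57 runs, 13 of them with 3 or more loci, and 4 of the 64 lower loci (6.25%) in 2 runs. The share that the number of calls alone would give was not computed. It is larger where more loci are called, so the 2 shares cannot be set against each other. Neighbours of 1 family can share reads, and how the authors' counting split such reads was not tested.

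The longest run held 6 higher loci on chromosome 2, LOC_Os02g36070, LOC_Os02g36110, LOC_Os02g36140, LOC_Os02g36150, LOC_Os02g36190 and LOC_Os02g36210. LOC_Os02g36210 was listed at 0 in all 3 WT libraries and at 8.75, 1.28 and 2.5 FPKM in *ntl3-1*. LOC_Os02g36190 measured 0.309, 0.254 and 0.299 FPKM in WT and 12.5, 2.59 and 4.98 FPKM in *ntl3-1* (log2 difference 3.85, limma adjusted p = 0.00409). LOC_Os02g36110 measured 1.34, 1.59 and 1.86 FPKM in WT and 16.4, 7.64 and 8.96 FPKM in *ntl3-1* (log2 difference 2.64, adjusted p = 0.0438). Its adjusted p was 0.0788 to 0.157 without any 1 of the 6 libraries at 29 ºC, and 0.0532 and 0.064 without *ntl3-1* replicate 2 or 3 at 45 ºC. That of LOC_Os02g36150 was 0.0637 to 0.0985 without any 1 of them but *ntl3-1* replicate 3. All 6 loci were highest in *ntl3-1* replicate 1, and 0 of them were called at 45 ºC.

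Around the Bet v I locus on chromosome 12, LOC_Os12g36830, LOC_Os12g36860 and LOC_Os12g36910 were higher as well. LOC_Os12g36830 measured 5.69, 5.93 and 9.04 FPKM in WT and 190, 70.9 and 91.4 FPKM in *ntl3-1* (log2 difference 3.97, limma adjusted p = 0.0176). Its adjusted p was 0.0683 without *ntl3-1* replicate 1, 0.0602 without *ntl3-1* replicate 3, and 0.0765 and 0.0718 without WT replicates 1 and 2. LOC_Os12g36860 measured 0.137, 0.119 and 0.0664 FPKM in WT and 9.15, 2.49 and 1.54 FPKM in *ntl3-1* (log2 difference 4.05, adjusted p = 0.00623). LOC_Os12g36910 measured 3.09, 4.49 and 3.73 FPKM against 9.11, 6.46 and 8.54 FPKM, and its adjusted p of 0.0219 became 0.0642 to 0.0991 without WT replicate 1 or 3 or *ntl3-1* replicate 1 or 3. Replicate 1 of *ntl3-1* was again the highest library in all 4 loci.

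On the same chromosome 2, 3 neighbours described as heavy metal associated domain proteins, of a family whose domain binds metal ions, and the locus beside them were higher. LOC_Os02g37300 measured 30.4, 35.3 and 71.9 FPKM in WT and 157, 189 and 296 FPKM in *ntl3-1* (log2 difference 2.28, limma adjusted p = 0.00687). LOC_Os02g37290 measured 26.7, 40.7 and 59.8 FPKM against 124, 153 and 226 FPKM (log2 difference 2.01, adjusted p = 0.00606), and LOC_Os02g37320 3.07, 3.87 and 8.74 FPKM against 23.3, 21.1 and 39.7 FPKM (log2 difference 2.49, adjusted p = 0.00974). LOC_Os02g37300, LOC_Os02g37290 and LOC_Os02g37320 each missed the threshold in 1 of 21 alternatives (limma adjusted p of 0.0679, 0.0697 and 0.072). Here replicate 3 was the highest library in both genotypes. A further run on chromosome 2 held 3 loci described as RING-H2 finger proteins, LOC_Os02g35329, LOC_Os02g35347 and LOC_Os02g35365, at means of 1.05 to 1.75 FPKM in *ntl3-1* and at most 0.153 FPKM in WT. LOC_Os05g08910, in a run of 3 on chromosome 5, measured 0.891, 1.23 and 1.39 FPKM in WT and 61, 69.3 and 77 FPKM in *ntl3-1* (log2 difference 5.78 ± 0.32 SE, adjusted p = 4.63e-06).

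**Figure D4:**
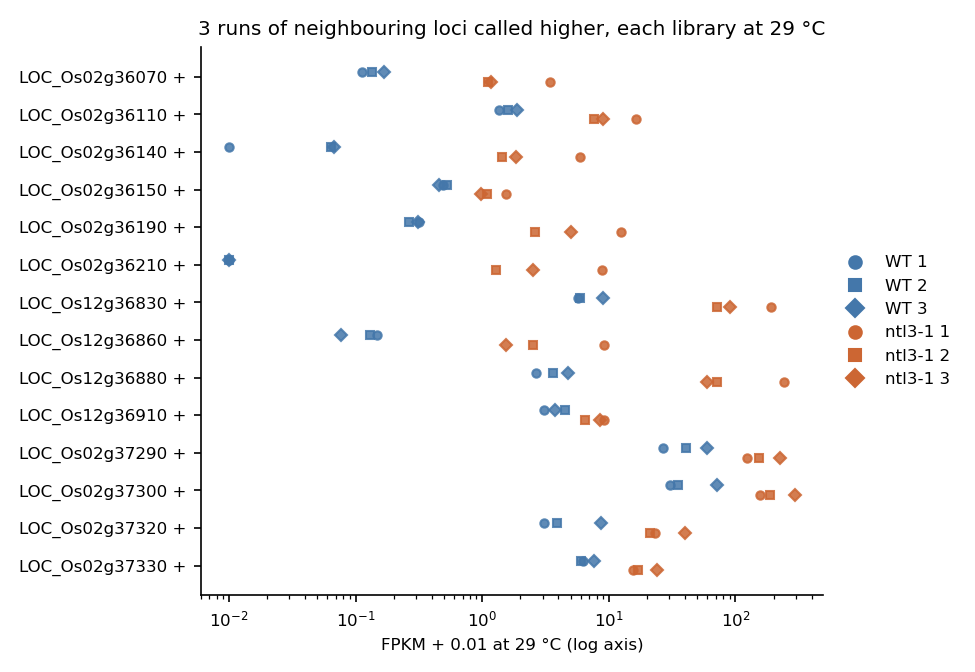
FPKM + 0.01 at 29 ºC (log axis) in each library of WT (blue) and *ntl3-1* (orange) for 3 runs of neighbouring loci, in the order of the locus names. In the runs from LOC_Os02g36070 and LOC_Os12g36830 the circle of *ntl3-1* replicate 1 lies farthest right, and in the run from LOC_Os02g37290 the diamond of replicate 3 does so in both genotypes.

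The libraries at 45 ºC are separate samples and gave another reading of the genotype difference under heat. They did not enter the difference at 29 ºC, but they took part in the filter and in the shared variance estimate, and so in which loci were called. Fits to the 6 libraries of each temperature alone called 334 loci higher at 29 ºC, 281 of them among the 566, and 69 of the 334 again at 45 ºC. Of the 566 loci higher at 29 ºC, 506 had a log2 difference above 0 at 45 ºC, against 47.3% of all loci tested. The test called 134 of them (23.7%) higher at 45 ºC, against 0.877% of all loci tested, and 0 lower. In 343 (60.6%) all 3 *ntl3-1* libraries at 45 ºC lay above the 3 of WT, against 7.24% of all loci. The median log2 difference of the 566 was 1.87 at 29 ºC and 0.82 at 45 ºC. Loci chosen for a large difference in one set of libraries tend to show a smaller one in another, so the sizes are given as a description.

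The share called again grew with the size of the difference, from 39 of 311 loci (12.5%) at 1 to 2, over 59 of 206 (28.6%) at 2 to 4, to 36 of 49 (73.5%) at 4 or more, where the median at 45 ºC was 4.65. Of the 64 lower loci, 43 had a log2 difference below 0 at 45 ºC, against 51.6% of all loci tested, and 18 (28.1%) were called lower, against 0.256%. In 27 (42.2%) the mutant libraries all lay below WT, against 6.71%. Of the 8 lower loci with a size of 4 or more, 2 were called again. LOC_Os07g35120, 1 of 2 loci called the other way, was listed at 0 in *ntl3-1* and at 0.574, 0.486 and 0.283 FPKM in WT at 29 ºC, and stood at 2.75, 1.92 and 2.15 FPKM in *ntl3-1* against 0.48, 0.472 and 1.08 FPKM in WT at 45 ºC. The other, LOC_Os01g15250, stayed at or under 0.207 FPKM in every library. Both were chosen after their values had been seen.

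The regulators described above were mostly not among the loci called at both temperatures. Of the 20 WRKY loci, 0 were called at 45 ºC in either direction (limma), while 6 were higher and 1 lower at an unadjusted p of at most 0.05. OsWRKY45 (LOC_Os05g25770) stood at 21.8, 41.5 and 27.1 FPKM in WT and 26.1, 39.5 and 36 FPKM in *ntl3-1* at 45 ºC, where the genotypes overlapped (log2 difference 0.2, limma adjusted p = 0.777). OsWRKY53 (LOC_Os05g27730) stood at 90.6, 101 and 140 FPKM in WT and 170, 164 and 192 FPKM in *ntl3-1* (log2 difference 0.69, adjusted p = 0.164). A call at one temperature alone does not show that the temperatures differ. The test of that difference, the interaction of genotype and temperature, passed an adjusted p of 0.05 for 76 of all loci tested (0.24%). It passed for 25 of the 566 higher loci, 23 of them with a smaller difference at 45 ºC, and for 7 of the 64 lower loci. The libraries without heat chose the higher and lower loci and enter the interaction too. Loci chosen for a large difference there tend to show a smaller one at 45 ºC. The counts among the higher and lower loci are therefore a description only, and the same limit holds for the called loci named below.

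OsWRKY77 (LOC_Os01g40260) and LOC_Os03g21710 were the WRKY members whose interaction passed (limma adjusted p = 0.0382 and 0.0191). OsWRKY77 was at 4.07, 3.6 and 4.44 FPKM in WT and 7.06, 4.6 and 5.54 FPKM in *ntl3-1* at 45 ºC. Its interaction missed the threshold without any 1 of 11 libraries, with an adjusted p of up to 0.119, and that of LOC_Os03g21710 without WT replicate 1, 2 or 3 or *ntl3-1* replicate 3 at 29 ºC, or without replicate 2 of either genotype at 45 ºC (0.0534 to 0.0679). In the chromosome 5 run, LOC_Os05g08910 stood at 27.7, 18 and 53.9 FPKM in WT and 84.4, 62.5 and 72.9 FPKM in *ntl3-1* at 45 ºC, and its difference of 5.78 at 29 ºC against 1.28 at 45 ºC passed the interaction (adjusted p = 0.00237) and did so in 20 of 20 alternatives. Its WT libraries were at most 1.39 FPKM at 29 ºC and at least 18 FPKM at 45 ºC.

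**Figure D5:**
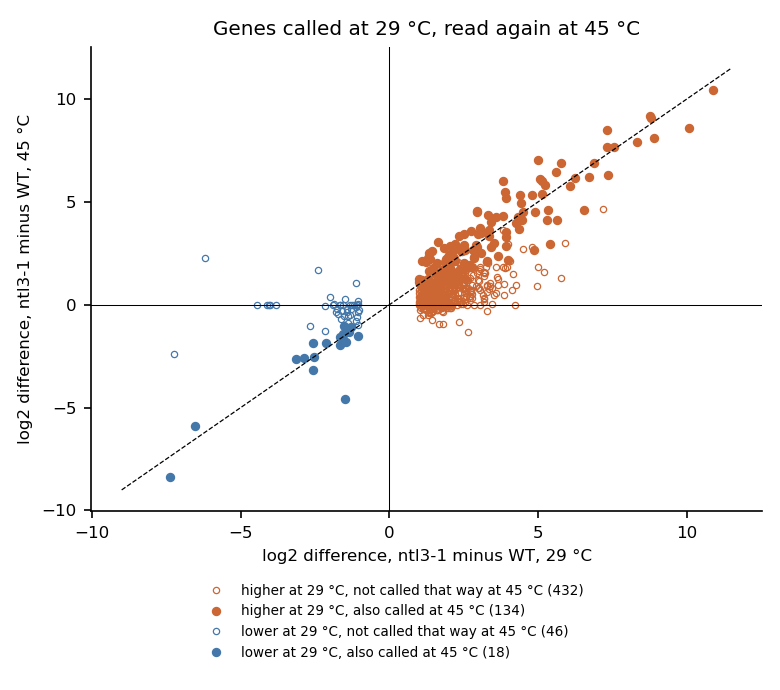
The log2 difference between *ntl3-1* and WT at 45 ºC (vertical axis) against that at 29 ºC (horizontal axis) for the 630 loci called at 29 ºC, with the line of equal differences dashed. Filled points are the 134 higher and 18 lower loci also called the same way at 45 ºC, and 371 of the 432 open orange points lie above 0 and under the line.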

How the data were processed

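RNA of whole seedlings was sequenced in 12 libraries. The authors filtered reads with SeqPrep and Sickle, aligned them to the MSU rice genome with TopHat and, by their methods, computed FPKM with RSEM, while the submitters' processing notes name Bowtie 0.12.2 and the mouse build mm8. Which steps made the deposited FPKM table was not settled. FPKM corrects for length and library total, so a few abundant transcripts can lower all others, and it keeps no counts. The deposited FPKM were read as log2(FPKM + 0.1), so differences of low genes are understated. Loci above 0 FPKM in at least 3 of the 12 libraries were fitted with limma 3.58.1 (R 4.3.3), with 1 mean a group, a variance trend and Benjamini-Hochberg adjustment over all loci tested. The authors used edgeR on counts, which were not used here. Calls required an adjusted p of at most 0.05 and a log2 difference of at least 1. The fit was tested on simulated log values, with known differences added to better expressed loci only, so that test does not cover loci near 0 FPKM. Nothing states that replicates came from separate cultures, so p-values measure the spread between these samples. The contrasts at 29 ºC and 45 ºC share no libraries but share 1 variance estimate.

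The loci compared and the 26 description lists were chosen with earlier results of these data known. Named were the loci named by the study, the 8 largest differences each way at 5 FPKM or more, with and without a description, the 5 most abundant calls each way, up to 3 calls of at least 1 FPKM a list and up to 5 loci each way listed at 0. Further WRKY, AP2, VQ, neighbouring and near-zero loci were named after their values were seen. Columns of the supplementary table other than descriptions, which hold the authors' comparisons, were not used. RefSeq lists OsNTL3 on chromosome 1, and no coordinates were used because the builds differ.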

Additional observations from a re-analysis of the deposited data

Results flagged for a closer look

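For 5 of the 151 loci examined the interaction of genotype and temperature passed the adjusted p (limma with Benjamini-Hochberg adjustment over all loci tested). Over all loci tested it passed for 76 (0.24%). Of the loci examined, 131 were called at 29 ºC, and the libraries that chose them enter the interaction too. The number passing among the loci examined is therefore a description only. Each value below is the log2 difference at 45 ºC minus that at 29 ºC. It was -4.50 for LOC_Os05g08910, which passed in 20 of 20 alternatives. It was -3.06 for the MYB-like factor LOC_Os03g14810 (adjusted p = 0.00897), whose heated seedlings gave 3.36, 1.74 and 1.97 FPKM in WT and a listed 0 in every *ntl3-1* library. This value is set in part by the constant added to the listed 0, and it moved to -0.35 (adjusted p = 0.881) with a constant of 1 FPKM. For LOC_Os03g21710 it was -3.02 and for OsWRKY77 (LOC_Os01g40260) it was -3.04, and they passed in 13 and 9 of 20 alternatives. For OsbZIP74 (LOC_Os06g41770) it was -0.98 (adjusted p = 0.0351), from a log2 difference of 0.23 at 29 ºC to -0.76 at 45 ºC, and it passed in 7 of 20 alternatives.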

How the results depend on the processing

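Every one of the 131 called loci examined kept its direction in the 21 alternatives of the fit, 54 of them passed the adjusted p of 0.05 in all, and 77 missed it in at least 1. The 566 higher and 64 lower loci became 349 and 30 with a constant of 1 FPKM, and the numbers called the same way at 45 ºC became 82 and 10 instead of 134 and 18. With only the 6 libraries of each temperature, 334 were higher, 69 of them and 5 of the lower loci again at 45 ºC. With an adjusted p of at most 0.01 the higher and lower loci were 320 and 31, with 11 lower ones again at 45 ºC, and with no fold threshold 126 were lower. Leaving out 1 library gave 351 to 599 higher and 36 to 72 lower loci, 111 to 143 and 14 to 18 of them again at 45 ºC. OsNTL3 passed the adjusted p after quantile normalization (-0.75, adjusted p = 0.0329) and ranged from -0.75 to -0.52 without 1 library, passing without replicate 3 of heat-stressed WT (adjusted p = 0.0284). The replicate block gave 561 higher and 57 lower loci, 514 and 50 of them shared with the main calls. It is given here only, since the numbers did not pair the libraries (r of deviations -0.0628, -0.038 and -0.0146 for numbers 1 to 3).

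Direction changed for 7 loci, none of them called, with reversed values of at most 0.18 in size: BiP1 (LOC_Os02g02410) was at -0.11 after quantile normalization and -0.04 and -0.10 without WT replicate 3 or *ntl3-1* replicate 1, and, over the fits without 1 library, calreticulin LOC_Os03g61670 ran from -0.59 to 0.04, LOC_Os09g27830 from -0.14 to 0.01, LOC_Os02g52150 from -0.06 to 0.33, LOC_Os05g02390 from -0.22 to 0.18, BiP2 (LOC_Os03g50250) from -0.31 to 0.07 and BiP4 (LOC_Os05g35400) from -0.19 to 0.07. The cause of these changes was not tested. With 3 libraries a genotype and no read counts, differences of loci under 1 FPKM, 105 of the 566 higher ones, are the least certain.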
